A study of Mus musculus with 2 samples.

Results

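Cyp2e1, Cyp1a2, Por, Gsta3 and Gstm1 are 5 genes of drug and toxin metabolism. They were grouped by name as enzymes of the zone around the central vein of the liver lobule. These genes were followed through 2 sections of mouse liver measured by MERFISH, which images barcoded RNA molecules in place and assigns them to segmented cells. The rule that picks the 5 genes is their names among the 500 genes of the panel. It uses no measured value, but it was written with earlier results of these data known. The sections are the replicates of 1 group of frozen mouse liver; the labels state no strain, age, genotype or treatment, and the 2d in their names is left as it stands. The design text of the series speaks of treated mice with liver metastases, but neither section is tied to a treatment by its labels, so none was assigned. Nothing states whether the sections came from separate animals. The p-values measure how far differences by distance or cell group disagree between these sections. That spread is partly shared across genes and may be technical.

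Cytochrome P450 enzymes oxidise lipophilic compounds in the endoplasmic reticulum, using electrons handed over by P450 oxidoreductase, and glutathione S-transferases then couple reactive products to glutathione. In rodent liver many of these enzymes are made mainly by the hepatocytes around the central vein, where Wnt signals maintain a pericentral programme. The innermost ring of those hepatocytes also makes glutamine synthetase, encoded by Glul, so cells rich in Glul mark the place from which distance can be measured.

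A Glul-high cell was a segmented cell with at least 3 Glul transcripts, and distance ran from the centre of a cell to the centre of the nearest Glul-high cell. Section 1 held 162 Glul-high cells among 26037 cells with 428386 gene counts in all, and section 2 held 73 among 85929 cells with 475382 gene counts. Cells with at least 10 gene counts were kept, 9209 in section 1 and 16290 in section 2. Of these, 4755 and 12149 were hepatocyte-like, meaning at least 3 counts over the 13 hepatocyte markers on the panel and at most 1 count from any other marker list. Hepatocyte-like cells had a median of 27 counts in section 1 and 16 in section 2. The marker held by the anchors did not single out hepatocytes in either section. In section 1, 53 of the 160 kept Glul-high cells (33.1%) were hepatocyte-like, against 51.6% of all kept cells. Another 23 were endothelial-like and 23 stellate-like. In section 2, 46 of 68 (67.6%) were hepatocyte-like, against 74.6% of all kept cells. No cell identifier was shared between the sections. Levels are given per 10000 gene counts, and their 95% Poisson intervals cover counting error only. Distances are written in µm on the assumption, taken from cell size, that this is the unit of the coordinates.

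The panel held 1 transcript identifier for each gene, and RefSeq promoter windows (build GRCm38.p6, from 250 bases before to 50 after the start) were found for 5 of 5 genes. The windows of Cyp2e1 (chr7:140763569-140763868, plus strand), Cyp1a2 (chr9:57683606-57683905, minus strand) and Por (chr5:135688895-135689194, plus strand) are shown. They were chosen by the levels of these genes around Glul-high cells, where Cyp2e1 and Cyp1a2 had similar profiles and Por a flat one. The profile of Cyp1a2 rests on few transcripts. The windows of Gsta3 and Gstm1 are not shown. Capitals mark CTTTGA, the core of the motif read by TCF/LEF factors downstream of Wnt, TATAAA, the TATA box, and GGGCGG, the GC box, on either strand.
Cyp2e1: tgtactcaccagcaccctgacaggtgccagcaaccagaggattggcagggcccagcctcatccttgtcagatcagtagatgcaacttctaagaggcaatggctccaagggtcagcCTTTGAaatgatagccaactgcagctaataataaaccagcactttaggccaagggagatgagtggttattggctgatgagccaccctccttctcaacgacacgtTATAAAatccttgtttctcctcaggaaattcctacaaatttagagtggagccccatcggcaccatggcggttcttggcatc
Cyp1a2: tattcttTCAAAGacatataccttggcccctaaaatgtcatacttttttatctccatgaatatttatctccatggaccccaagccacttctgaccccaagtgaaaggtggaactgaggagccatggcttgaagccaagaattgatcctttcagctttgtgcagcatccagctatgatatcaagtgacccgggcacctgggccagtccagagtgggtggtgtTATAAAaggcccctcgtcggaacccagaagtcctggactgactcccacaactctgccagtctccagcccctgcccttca
Por: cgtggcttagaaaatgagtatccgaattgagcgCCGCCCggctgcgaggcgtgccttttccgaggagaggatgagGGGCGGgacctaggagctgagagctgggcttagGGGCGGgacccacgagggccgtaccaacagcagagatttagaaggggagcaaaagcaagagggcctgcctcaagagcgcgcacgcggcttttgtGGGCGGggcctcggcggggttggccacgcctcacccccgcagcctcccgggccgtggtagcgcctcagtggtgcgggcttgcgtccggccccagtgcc
Other letters searched on both strands were CTTTGAT, a longer form of the TCF/LEF core, the HNF1 half-site GTTAAT with the 10-base HNF1 motif that holds it, and the aryl hydrocarbon receptor core GCGTG with the longer TTGCGTG that holds it. CTTTGA stood in the Cyp2e1 and Cyp1a2 windows and in 16% of 32851 promoter windows of the same length. TATAAA stood in the windows of Cyp2e1 and Cyp1a2 and in 1 of the 2 Gstm1 windows, against 13.6% of all windows. GGGCGG was found 4 times in the Por window and stood in 35.7% of all windows. GCGTG stood in the Por window and in both Gstm1 windows (32.4% of all windows), and GTTAAT in the Gsta3 window (7.1% of all). CTTTGAT, the 10-base HNF1 motif and TTGCGTG stood in none of the 6 windows, and in 3.73%, 0.399% and 1.16% of all windows. A match describes these letters only.

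Cyp2e1, which encodes the cytochrome that oxidises ethanol, acetaminophen and other small molecules, was the only member whose near-far difference passed the test. In section 1 its level in hepatocyte-like cells was 102.8 per 10000 in Glul-high cells, 54.5 within 50 µm of one, 51.1 at 50 to 100 µm, 39.5 at 100 to 200 µm and 37.7 beyond 200 µm. In section 2 the same steps gave 94.7, 62.6, 46.0, 34.7 and 31.8 per 10000. In these bins each step outward had a lower level than the step before it in both sections, and the 95% intervals within 50 µm (46.4 to 63.7 and 51.6 to 75.1) lay above those beyond 200 µm (32.5 to 43.6 and 28.7 to 35.1). Bins of 50 µm gave no steady fall in section 1, where Cyp2e1 had 39.2 at 100 to 150 µm, 40.1 at 150 to 200 µm and 48.9 (38.9 to 60.7) at 200 to 250 µm, an interval that overlapped that of the cells within 50 µm. In section 2 these bins had 38.6, 30.8 and 26.4.

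The test between cells within 50 µm and cells beyond 200 µm asks whether this gradient exceeds the disagreement of distance steps between sections. That spread is taken over all bins and partly shared across genes. Cyp2e1 rose near Glul-high cells by 0.76 ± 0.20 on the log2 scale (SE, 2 sections), or 1.69-fold with a 95% interval of 1.29 to 2.23 (edgeR quasi-likelihood test, Benjamini-Hochberg adjusted over 344 genes, adjusted p = 0.0451). Section 1 gave 0.57 and section 2 gave 0.95. It was 1 of 2 genes called, both higher near Glul-high cells, which is 0.581% of the 344 tested, and 25 genes had an unadjusted p under 0.05. The call was lost in 7 of 18 alternative settings, among them the fit without the section block (0.79, edgeR adjusted p = 0.999), while the change was positive in 18 of 18. The other gene called was Rnase4, a secreted ribonuclease of the pericentral list, at 1.17 ± 0.32 (edgeR adjusted p = 0.0451).

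Glul-high hepatocyte-like cells themselves carried 31 Cyp2e1 transcripts in 53 cells of section 1 and 14 in 46 cells of section 2. Against cells beyond 200 µm Cyp2e1 rose by 1.12 ± 0.33 on the log2 scale (edgeR quasi-likelihood test, Benjamini-Hochberg adjusted p = 0.0355). Section 1 gave 1.27 and section 2 gave 0.79. It was the single gene called higher (0.291% of 344) among 7 called (2.03%), while DESeq2 and library size alone each called 3 higher. The call was lost with Glul of at least 5 (0.89, edgeR adjusted p = 0.504), with at least 20 counts per cell (1.05, adjusted p = 0.0545) and without the section block (1.06, adjusted p = 0.664). Whether Glul-high cells differed from cells within 50 µm was not tested. TMM scaling set the median of all genes at -0.59 in this contrast, and with library size alone that median was -0.23 and Cyp2e1 was at 1.52 (edgeR adjusted p = 0.000113). Glul-high hepatocyte-like cells were deeper than the rest, with a median of 47 counts against 23 beyond 200 µm in section 1 and 27.5 against 15 in section 2.

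**Figure D1:**
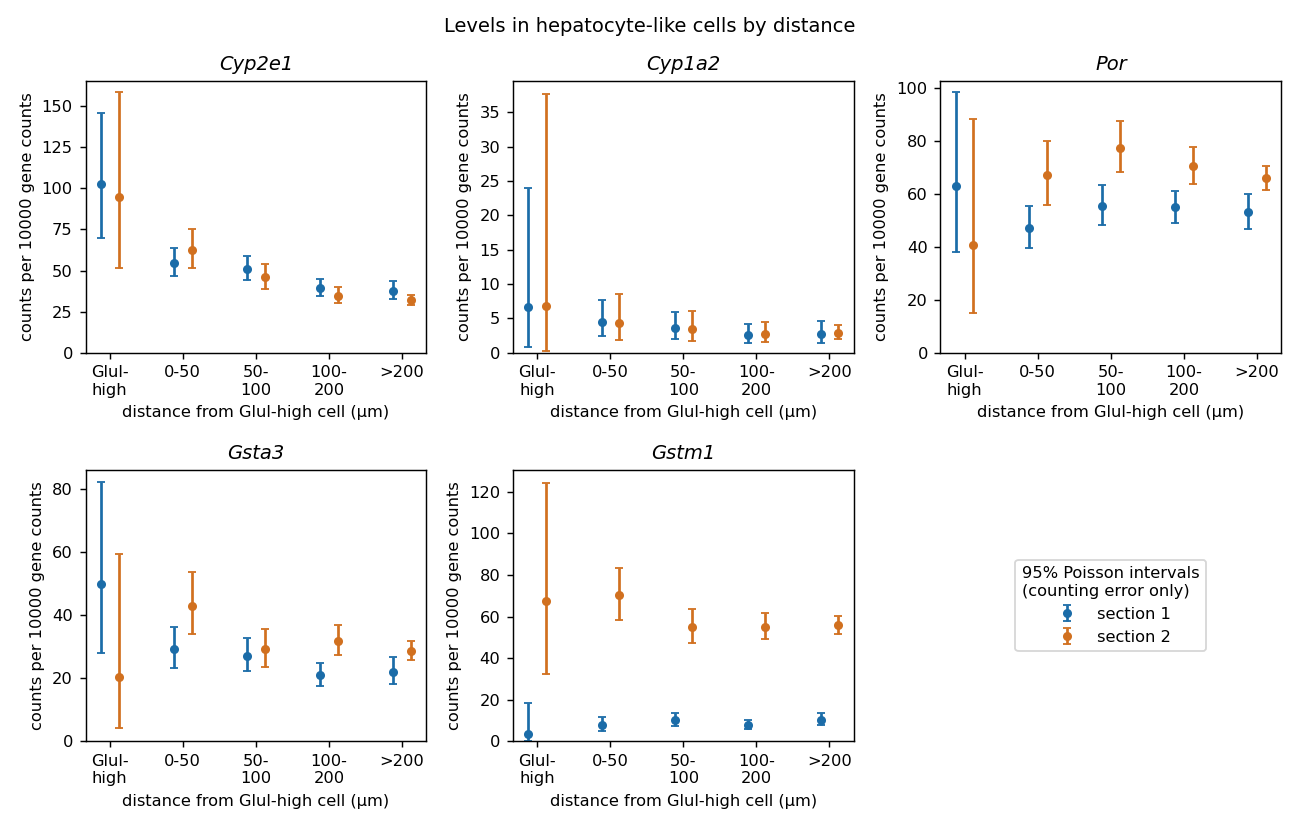
Level of each enzyme gene in hepatocyte-like cells, in counts per 10000 gene counts, by distance from the nearest Glul-high cell in µm; points are sections and bars 95% Poisson intervals. Cyp2e1 is lower at each of these steps outward in both sections, with 102.8 and 94.7 in Glul-high cells and 37.7 and 31.8 beyond 200 µm, while Por has no such order and Gstm1 separates the sections.

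Cyp1a2, the cytochrome that oxidises caffeine and many aromatic amines, was at the edge of detection. Hepatocyte-like cells held 57 Cyp1a2 transcripts in section 1 and 70 in section 2, or 3.16 and 3.05 per 10000. That was 2.02 and 6.52 times the mean of the 50 blank barcodes, which name no gene, and below the highest blank, at 129 and 189 counts. In section 1 they were 6.63 in Glul-high cells (2 transcripts), 4.46 within 50 µm, 3.54 at 50 to 100 µm, 2.50 at 100 to 200 µm and 2.68 beyond. In section 2 they were 6.77 (1 transcript), 4.35, 3.37, 2.67 and 2.89. The levels in Glul-high cells and within 50 µm were above the rest in both sections, while the last step outward was not lower than the one before it. The near values had intervals that overlapped those of the far cells. The near-minus-far change was 0.66 ± 0.43, with 0.67 in section 1 and 0.51 in section 2, and did not pass the test (edgeR adjusted p = 0.776). Its 95% interval ran from 0.88-fold to 2.82-fold, so these counts leave room for a change as large as that of Cyp2e1.

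Por, which encodes the oxidoreductase that supplies electrons to both cytochromes, had a flat profile. In section 1 its level was 63.0 per 10000 in Glul-high cells, 47.0 within 50 µm, 55.4 at 50 to 100 µm, 54.9 at 100 to 200 µm and 53.0 beyond 200 µm. In section 2 the values were 40.6, 66.9, 77.3, 70.5 and 65.8. The highest step was the Glul-high cells in section 1 but 50 to 100 µm in section 2. The near-minus-far change was -0.06 ± 0.19, with -0.13 in section 1 and 0.01 in section 2 (edgeR adjusted p = 0.968). The 95% interval ran from 0.738-fold to 1.25-fold. The sign of the Por change turned under 7 of 18 alternative settings, and none of them called it.

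Gsta3, an alpha-class glutathione S-transferase, lay between Cyp2e1 and Por. Its levels in section 1 were 49.8 per 10000 in Glul-high cells, 29.2 within 50 µm, 27.0 at 50 to 100 µm, 20.9 at 100 to 200 µm and 22.1 beyond. In section 2 they were 20.3 (3 transcripts), 43.0, 29.1, 31.9 and 28.7. In section 2 the cells within 50 µm had an interval (34.0 to 53.6) above that of the cells beyond 200 µm (25.7 to 31.8), and in section 1 the intervals overlapped. The near-minus-far change was 0.50 ± 0.23, with 0.44 in section 1 and 0.56 in section 2, or 1.41-fold with a 95% interval of 1.03 to 1.93. It did not pass the test (edgeR adjusted p = 0.58), although it was positive in all 18 alternative settings and past the threshold in 2 of them.

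Gstm1, a mu-class glutathione S-transferase, differed more between the sections than with distance. In hepatocyte-like cells it had 8.94 per 10000 in section 1 and 56.8 in section 2, a 6.35-fold gap that cannot be told apart from the section, and 19 of 500 genes differed between the sections by over 6-fold. Gstm1 has close paralogs, and whether its probes separate them was not tested. Its levels by distance in section 1 were 3.32 in Glul-high cells (1 transcript), 7.89 within 50 µm, 10.1 at 50 to 100 µm, 7.84 at 100 to 200 µm and 10.3 beyond. In section 2 they were 67.7, 70.2, 54.9, 55.2 and 55.8. In section 1 it lay close to the highest blank barcode, with 23 against 21 counts within 50 µm and 50 against 46 beyond 200 µm. The near level was below the far one in section 1 and above it in section 2, with intervals that overlapped in both. The changes were -0.32 and 0.31, with a joint 0.15 ± 0.24 (edgeR adjusted p = 0.943). Its 95% interval ran from 0.801-fold to 1.53-fold.

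**Figure D2:**
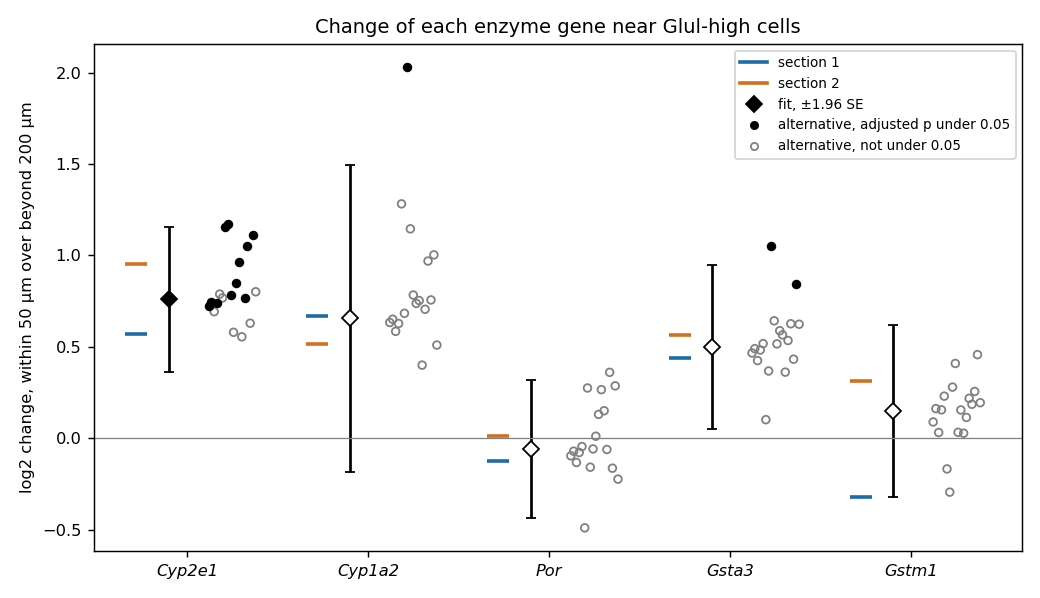
Log2 change of each enzyme gene between hepatocyte-like cells within 50 µm and beyond 200 µm of a Glul-high cell: short dashes to the left are the sections, diamonds the edgeR fit with its 95% interval, and dots to the right the alternative settings, filled where the adjusted p was under 0.05. Cyp2e1 stays above 0 throughout (0.55 to 1.17), Gsta3 and Cyp1a2 stay above 0 with mostly hollow dots, and Por spans 0 (-0.49 to 0.36).

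The choice of anchor moved these values most. When only Glul-high cells with another within 30 µm were used, 47 in section 1 and 12 in section 2, the hepatocyte-like cells within 50 µm were 144 and 100. That is under the minimum of 200 cells set for a bin, and the bin was not joined with the next. In them Cyp2e1 had 104.3 per 10000 in section 1 and 99.0 in section 2, against 41.8 and 35.5 beyond 200 µm. Gsta3 had 60.2 and 58.2 near, against 21.9 and 29.7 far, and Cyp1a2 had 14.0 and 11.6 near (7 and 2 transcripts), against 2.78 and 2.87 far. The near values of section 2 rest on 17 Cyp2e1 and 10 Gsta3 transcripts. These 3 members were called higher, with log2 changes of 1.17, 1.05 and 2.03 (edgeR adjusted p = 0.000663, 0.0158 and 0.0464), among 20 genes called (5.81% of 344), 5 of them higher (1.45%) and 15 lower. Por was at -0.16 and Gstm1 at 0.28, and neither was called. The median of all genes stood at -0.32 in this setting. With cell volume as the offset in place of total counts, the median stood at 0.31 and 14 genes were called, all of them higher (4.07% of 344). Cyp2e1 was then at 1.11 and Gsta3 at 0.84 (edgeR adjusted p = 0.000287 and 0.0189), and the other 3 members were not called.

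The profile of all decoded transcripts, inside or outside segmented cells, was read from the same Glul-high centres. Transcripts assigned to a Glul-high cell itself were left out, both in these steps and in the test of near against far transcripts. Per 10000 decoded transcripts, Cyp2e1 had 53.3 within 25 µm of a Glul-high centre, 37.3 at 100 to 125 µm and 34.3 at 275 to 300 µm in section 1. In section 2 it had 69.9, 43.3 and 29.1 at these distances. In section 1 there was no steady decline beyond 125 µm, with 31.5 at 125 to 150 µm, 37.6 at 175 to 200 µm and 28.4 at 225 to 250 µm. In section 2 the level was lower at each step out to 24.5 at 175 to 200 µm, and lay between 25.3 and 29.1 beyond. Between transcripts within 50 µm and beyond 200 µm its log2 change was 1.05 ± 0.22 (edgeR adjusted p = 0.0184, 4.35% of 483 genes called). Gsta3 had 52.5 per 10000 within 25 µm in section 2, against 26.6 at 275 to 300 µm, but 27.8 against 22.5 in section 1. Of all Cyp2e1 molecules decoded, 54.3% in section 1 and 63.0% in section 2 lay in a segmented cell.

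**Figure D3:**
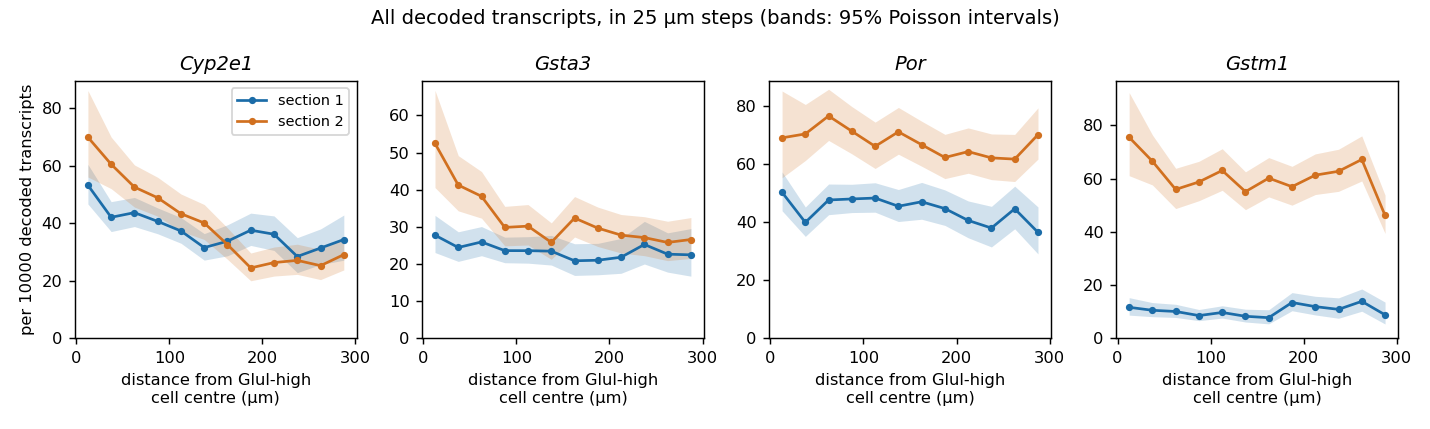
Share of decoded transcripts taken by 4 of the enzyme genes (per 10000), leaving out transcripts assigned to Glul-high cells. Steps are 25 µm of distance from the nearest Glul-high cell centre, out to 300 µm. Lines are sections and bands 95% Poisson intervals. Cyp2e1 is higher in the first step (53.3 and 69.9) than in the last (34.3 and 29.1) in both sections, without a steady decline beyond 125 µm in section 1, Gsta3 has 52.5 against 26.6 in section 2 and 27.8 against 22.5 in section 1, and Gstm1 differs by section at every distance.

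Depth and other readouts moved with distance too. Hepatocyte-like cells within 50 µm had a median of 30 counts in section 1 and 17 in section 2, against 23 and 15 beyond 200 µm. When every cell was thinned to 10 counts, 5.01% of near cells in section 1 and 6.07% in section 2 had a Cyp2e1 transcript, against 2.84% and 3.07% of far cells (16.0% and 11.1% against 8.53% and 5.47% before thinning). On sums of thinned cells the change was 0.80 (edgeR adjusted p = 0.106). The mean blank barcode stood at 1.32 and 0.533 per 10000 near, against 2.05 and 0.499 far. The summed hepatocyte markers took 3207 and 3551 per 10000 near, against 3382 and 3762 far. Of the other lists, the 4 erythroid markers on the panel took 50.8 and 27.7 near, against 56.3 and 35.0 far, the 7 endothelial markers 31.6 and 28.3, against 29.3 and 25.02, and the 4 stellate markers 21.6 and 23.4, against 22.1 and 21.7. The 7 monocyte and neutrophil markers took 12.7 and 15.8 near, against 23.1 and 21.2 far, and the 5 B-lineage markers 9.26 and 9.79, against 13.6 and 11.6, both lower near in both sections. The 4 macrophage markers took 16.1 and 24.5 near, against 17.3 and 18.002 far. By definition, hepatocyte-like cells hold at least 3 hepatocyte marker counts and at most 1 count of each other list. Near cells were deeper, so these marker levels cannot be told apart from depth. The part of depth, blanks and markers in the result was not tested.

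Other genes of zonation were read beside the enzymes from lists written with earlier results of these data known. Of the pericentral list, 12 of 15 genes on the panel were tested, 11 had a positive near-minus-far change (the exception was Gstm2 at -0.14) and 1, Rnase4, passed the test, with a median of 0.67. Of the periportal list, 11 of 13 were tested, none was positive and none passed, with a median of -0.50, although 4 of 11 were positive with Glul of at least 2 and with tertiles of distance. Over all 344 genes the median was -0.04 and 46.2% were positive. The median of the 5 enzyme genes was 0.50, with 1 called higher. Among 8 further xenobiotic enzymes on the panel only Cyp2f2, Gstm2 and Gstm4 had the 50 counts needed, and none passed the test. Cyp2f2, a periportal cytochrome, was at -0.52 ± 0.25 with 0.03 in section 1 and -1.89 in section 2 (edgeR adjusted p = 0.593).

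**Figure D4:**
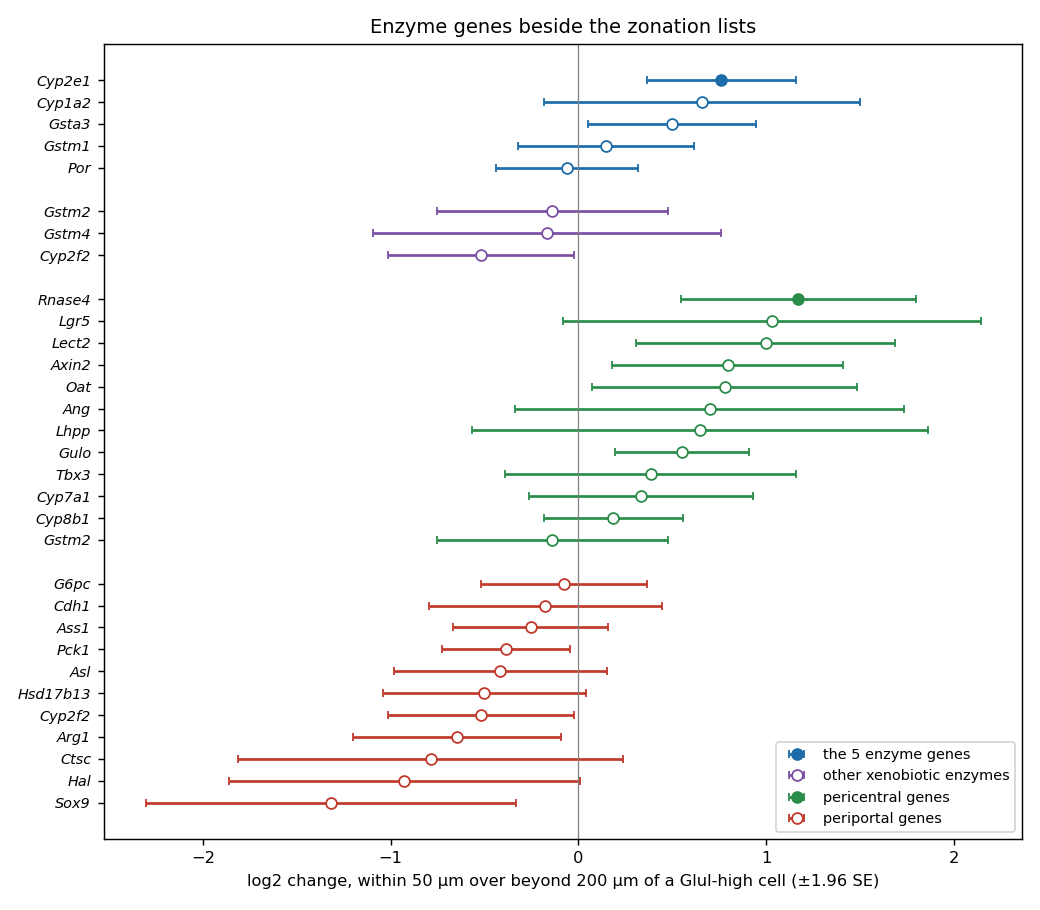
Log2 change between hepatocyte-like cells within 50 µm and beyond 200 µm of a Glul-high cell for the 5 enzyme genes and the tested genes of 3 lists, with 95% intervals; filled points had an edgeR adjusted p under 0.05. Cyp2e1 (0.76) and Rnase4 (1.17) are filled, the pericentral genes lie mostly right of 0 and the periportal genes left of it.

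The genes whose profile over the 10 sums of both sections (centred within section) was most like that of Cyp2e1 were Gulo (Pearson r = 0.951), Cyp1a2 (0.951), Axin2 (0.919), Oat (0.882) and Rnase4 (0.835), out of 343 genes. Gulo encodes the last enzyme of vitamin C synthesis, Axin2 is a target of Wnt signalling and Oat encodes ornithine aminotransferase. Gsta3 ranked 27th with 0.315, while Por had -0.231 and Gstm1 -0.596. These values describe shared sums of the same cells and carry no p. For Cyp1a2 the Glul-high sums held 2 transcripts in section 1 and 1 in section 2. How far its r rests on them was not tested.

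The cells with a Cyp2e1 transcript were also described by their other counts, leaving Glul-high cells out. In section 1, 571 hepatocyte-like cells with Cyp2e1 had 69.5 Por counts per 10000 other counts, against 49.3 in 4125 cells without it. In section 2 Por had 80.6 in 751 cells with Cyp2e1, against 68.0 in 11315 without. Cyp2f2 ran the other way, with 16.3 and 5.37 in cells with Cyp2e1, against 35.1 and 17.7 in cells without. Gsta3 had 28.4 and 38.8, against 22.9 and 30.1, and Gulo 106.4 and 77.6, against 72.3 and 52.3. Gstm1 was split, with 5.79 and 66.3 in cells with Cyp2e1, against 9.93 and 56.2 in cells without. Cells with Cyp2e1 were deeper, with a median of 51 other counts against 25 in section 1 and 19 against 16 in section 2, so these are descriptions with no test.

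By the mean of both sections, Cyp2e1, Por and Gsta3 were highest in hepatocyte-like cells among 7 marker groups. Kept cells in no group, 1502 in section 1 and 2452 in section 2, were left out of this order and of the tests. Per 10000 they had 23.2 and 40.7 of Cyp2e1, 31.5 and 63.9 of Por and 24.6 and 28.7 of Gsta3. For Gstm1 they had 10.0 and 70.4, and their hepatocyte markers took 1116 and 1067. Cyp2e1 had 45.1 per 10000 in hepatocyte-like cells of section 1 and 37.4 in section 2. In the other groups it had 35.1 and 40.8 in endothelial-like, 27.0 and 31.3 in B-lineage-like, 26.2 and 20.3 in macrophage-like, 28.5 and 15.1 in stellate-like, 22.0 and 12.4 in erythroid-like and 22.6 and 9.40 in monocyte-neutrophil-like cells. The section values of hepatocyte-like and endothelial-like cells overlapped. On the TMM scale of the fit, the log2 difference was in favour of hepatocyte-like cells against all 6 groups, between 0.70 and 1.81. Of the 6 differences, 5 passed the edgeR quasi-likelihood test after Benjamini-Hochberg adjustment. The exception was endothelial-like cells (0.70 ± 0.36, adjusted p = 0.18), whose level per 10000 was the higher one in section 2. Without TMM the smallest of the 6 differences was 0.21. Of 411 genes tested, those called higher in hepatocyte-like cells were 9.25% against endothelial-like, 12.4% against stellate-like, 12.7% against macrophage-like, 15.3% against B-lineage-like, 17% against erythroid-like and 17% against monocyte-neutrophil-like cells. In either direction the shares called were 18%, 21.2%, 22.1%, 28.5%, 28% and 28.5% in the same order.

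Por had 53.3 and 68.5 per 10000 in hepatocyte-like cells, while the other groups spanned 30.1 to 44.7 in section 1 and 30.1 to 66.2 in section 2. Its log2 difference ran from 0.74 to 1.44 and passed the test against 4 of 6 groups, the largest being against stellate-like cells. Gsta3 had 24.4 and 30.6 in hepatocyte-like cells, while the other groups spanned 8.17 to 17.6 and 5.10 to 25.7. It passed against 5 of 6 groups with a top difference of 2.21 ± 0.45 against endothelial-like cells (edgeR adjusted p = 0.000195), where it was lowest in both sections, and stellate-like cells were the exception (0.79, adjusted p = 0.142). Among the marker groups, Gstm1 had its highest mean level in monocyte-neutrophil-like cells, at 10.6 and 68.2, against 8.94 and 56.8 in hepatocyte-like cells. It passed against 4 of 6 groups. On the TMM scale it was at 0.34 against monocyte-neutrophil-like and 0.28 against stellate-like cells (edgeR adjusted p = 0.503 and 0.65). The monocyte-neutrophil-like levels per 10000 were still the higher ones in both sections. Cyp1a2 passed against none, with 0 to 8 transcripts in each other group of each section. In every one of the 5 genes all neighbours in the order of groups overlapped between sections except 2 pairs for Cyp2e1, 2 for Por, 1 for Gsta3 and 1 for Cyp1a2.

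Scaling and the section block bear on these group calls. TMM left the median of all genes between 0.15 and 0.43 above 0, and with library size alone it lay between -0.26 and 0.10. Summed over the 6 comparisons, 344 genes were called higher and 257 lower with TMM, and 176 higher and 399 lower without it. Without TMM the calls numbered 3 of 6 for Cyp2e1, 4 for Gsta3, 2 for Por and 0 for Gstm1, whose sign turned in 2 of 6. Without the section block 1 call of a member was left, that of Gsta3 against endothelial-like cells. The other groups also carried hepatocyte transcripts. The hepatocyte markers took 3373 and 3733 per 10000 in hepatocyte-like cells, and at least 1612 and 1619 in the other groups, up to 2174 and 2501. How far this sets the enzyme counts in those groups was not tested.

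**Figure D5:**
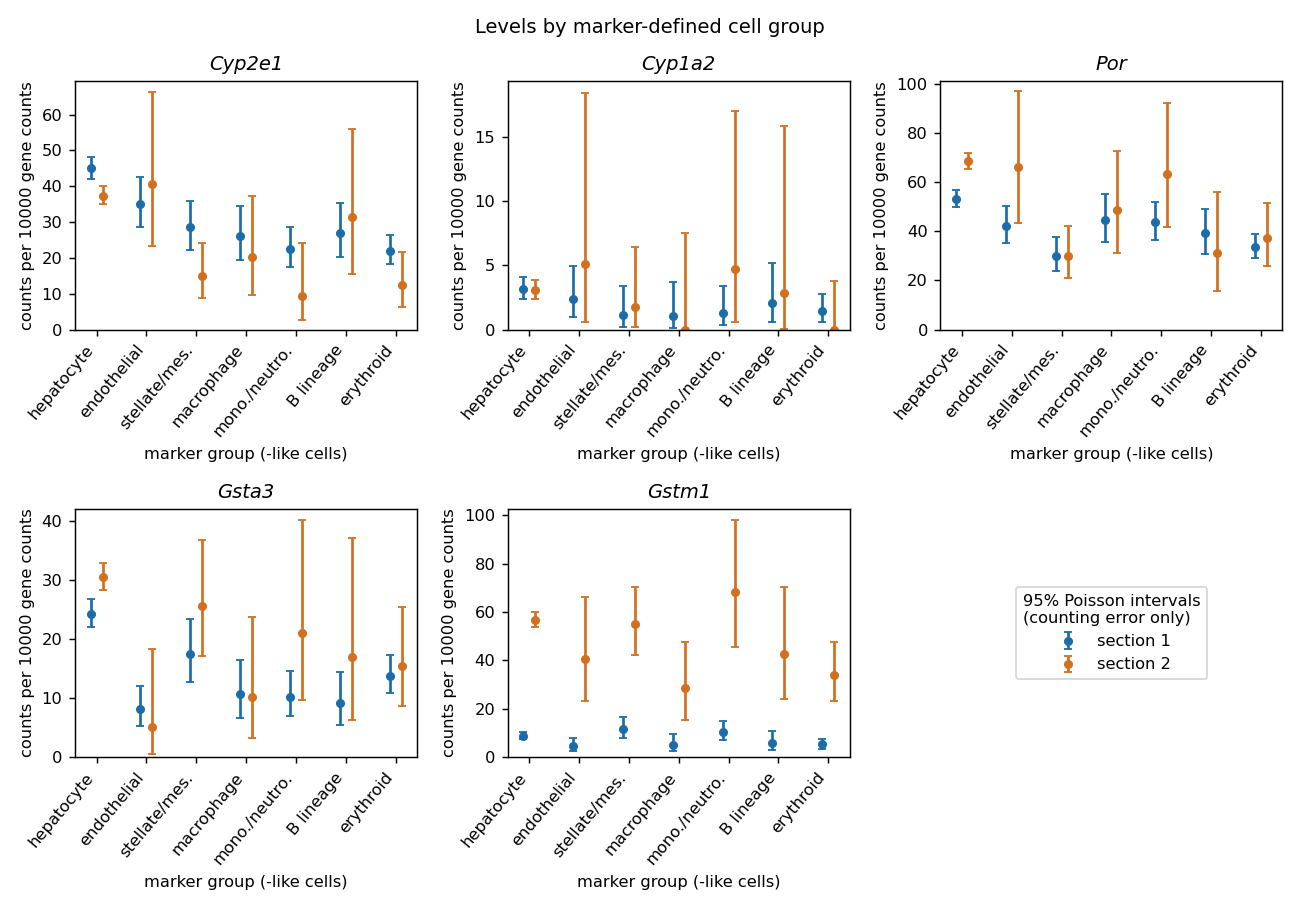
Level of each enzyme gene in counts per 10000 gene counts in the 7 marker groups, hepatocyte-like cells first; points are sections and bars 95% Poisson intervals. Gsta3 in endothelial-like cells (8.17 and 5.10) lies well below hepatocyte-like cells (24.4 and 30.6), while Cyp2e1 in endothelial-like cells (35.1 and 40.8) does not stand apart from hepatocyte-like cells (45.1 and 37.4).

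The gradient of Cyp2e1 was also read in the cells that are not hepatocyte-like. Pooled over the named groups, Cyp2e1 had 28.6 per 10000 within 100 µm of a Glul-high cell in section 1 and 36.6 in section 2, against 20.5 and 13.1 beyond. Hepatocyte-like cells had 52.5 and 52.0 within 100 µm, against 38.7 and 32.7 beyond. As pools, both classes were higher near Glul-high cells in both sections. Endothelial-like cells of section 1 were not, with 32.2 near against 35.6 far, while those of section 2 had 93.3 against 26.8 (8 transcripts each). The other 5 groups were higher near in both sections, on 1 to 7 transcripts within 100 µm in section 2. Endothelial-like cells made up 5.64% of kept cells within 50 µm in section 1, against 2.75% beyond 200 µm, and how far this make-up sets the pooled value was not tested. The log2 change was 0.80 ± 0.25 in the other groups and 0.63 ± 0.22 in hepatocyte-like cells, and neither passed the test (edgeR adjusted p = 0.224 and 0.999). The difference between the classes was 0.17 ± 0.33, with a 95% interval of -0.48 to 0.81 (edgeR adjusted p = 0.988). For Por it was 0.25, for Gsta3 0.03, for Cyp1a2 -0.35 and for Gstm1 -0.51, and none passed. In this edgeR test of the difference 0% of 407 genes were called, and 10 had an unadjusted p under 0.05.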

How the data were processed

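Frozen liver was sectioned at 10 µm and fixed, per the labels' protocols. The authors deposited unnormalised counts of 500 genes and 50 blanks in each cell, cell volumes (a signal column) and the positions of decoded transcripts. The software behind these steps is not given in the sources used here. To be kept, cells needed at least 10 gene counts and a volume of at least 50. No doublet caller was run. Groups came from marker lists (at least 2 counts, no tie, for groups other than hepatocyte-like). Counts were summed per section and distance bin (10 sums), per section and group (14 sums), or per section, class and distance (8 sums), and tested with edgeR 4.0.16 in R 4.3.3 (quasi-likelihood, TMM, section as replicate block, at least 50 counts, Benjamini-Hochberg at 0.05). Bins under 200 hepatocyte-like cells were to be joined. The Glul-high bin, at 53 and 46, was kept because a comparison needs it. Bins of the alternative settings were not joined, among them the near bin of paired anchors, at 144 and 100. Glul, which sets the distance, was left out of distance tests. Log2 changes in single sections used a prior count of 2. Cholangiocyte-like cells (6 and 2) were not tested, and megakaryocytes, with 2 markers on the panel, were not named. The section block pairs sums from the same section by construction. In data simulated for the distance comparison over 344 genes, 100 genes were changed by 1 log2 unit and 100 by 2, in both directions. The spread was a fixed assumed value. Of genes changed by 1 unit 55% were called, of those changed by 2 units 90%, and 0 of 144 unchanged genes. With so many changed genes the adjusted threshold is more lenient, so these shares do not give the power of the reported tests. DESeq2 1.42.0, other anchors, filters, scalings and bins were alternatives. The naming rule took the 5 members, list genes past the test, and the 5 profiles most like Cyp2e1; Cyp2f2, Gstm2 and Gstm4 were named after their values were seen. The members and lists were chosen with earlier results of these data known.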

Additional observations from a re-analysis of the deposited data

How the results depend on the processing

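The near-minus-far change of Cyp2e1 was positive in all 18 alternative settings (0.55 to 1.17) and in each section left alone (0.57 to 0.95, with no test). It was not past the threshold at 0.69 with at least 1 count per gene, 0.79 without the replicate block, 0.77 with Glul of at least 5, 0.58 with at least 20 counts per cell, 0.55 with tertiles of distance, 0.63 against 100 to 200 µm and 0.80 with cells thinned to 10 counts, an alternative chosen after seeing the data. Past the threshold were Cyp1a2 at 2.03 and Gsta3 at 1.05 with anchors that have another within 30 µm, and Gsta3 at 0.84 with volume as offset, which set the median of all genes at 0.31. Por turned positive at 0.27 with Glul of at least 2, 0.011 with at least 20 counts per cell, 0.13 over all kept cells, 0.27 over all cells with any count, 0.15 with tertiles of distance, 0.36 over all decoded transcripts and 0.29 with volume as offset, and ran from -0.13 to 0.0096 with a section left out. Gstm1 turned negative at -0.17 with Glul of at least 5 and -0.30 with Glul of at least 2, and ran from -0.32 to 0.31 with a section left out. The causes were not tested.

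Against the 2 genes called near Glul-high cells, the count was 0 with at least 1 count per gene, without the replicate block, with at least 20 counts per cell, with tertiles, against 100 to 200 µm and with thinned cells, where edgeR gave 29, 1, 15, 20, 29 and 20 genes at an unadjusted p under 0.05. It was 1 with Glul of at least 2, 4 with at least 200 counts per gene, 7 with hepatocyte-like anchors, 11 over all kept cells, 14 over all cells with any count, 14 with volume as offset, 20 with paired anchors and 21 over all decoded transcripts. For Glul-high cells, 0 genes were called without the replicate block (25 at an unadjusted p under 0.05). There Por ran from -1.46 to 0.085 and Gsta3 from -1.24 to 0.99 with a section left out, and Gsta3 was -0.023 with Glul of at least 5. Against the other groups the calls without the replicate block were 23 for B-lineage-like, 17 for endothelial-like, 19 for erythroid-like, 9 for macrophage-like, 16 for monocyte-neutrophil-like and 8 for stellate-like cells, in place of 117, 74, 115, 91, 117 and 87, and 70 for B-lineage-like cells with at least 3 marker counts. Gstm1 turned to -0.25 against monocyte-neutrophil-like and -0.15 against stellate-like cells without TMM, and ran from -0.17 to 0.67 against stellate-like cells with a section left out. In the difference between classes, Gsta3 ran from -0.36 to 0.63 with a section left out, and Gstm1 turned to 0.43 with a split at 50 µm. The other alternatives kept the direction of each member's change. In the lists near Glul-high cells, periportal genes were positive in 4 of 11 with Glul of at least 2 and with tertiles, 4 of 13 over all decoded transcripts and 3 of 11 with volume as offset, and the further xenobiotic enzymes in 2 of 3 with paired anchors, hepatocyte-like anchors and volume as offset. In Glul-high cells the Cyp2e1 change was 0.89 with Glul of at least 5, 1.05 with at least 20 counts per cell and 1.06 without the replicate block, none past the threshold. Few transcripts limit Cyp1a2, and few cells (53 and 46) the Glul-high values.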
